A study of Ovis aries with 14 samples.

Results

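The receptors described here receive hormone and neuropeptide signals of appetite and energy state in the hypothalamus. They are 7 genes: LEPR, NPY1R, NPY2R, HCRTR1, HCRTR2, GLP1R and BRS3. They were taken as all probes of the sheep array whose gene name, or whose symbol matched through RefSeq, was 1 of these 7, and this gave 14 probes on 18 spots, of 15008 probes and 964 named genes in all. The tissue was the hypothalamus of fetal sheep at about 130 days of fetal age, and each array was hybridised with Cy3-labelled RNA of a single sample. In the direct arm, catheterised fetuses received triclosan, an antibacterial agent, at 250 µg per day (4 arrays), or vehicle (4 arrays), into a fetal vein for 2 days. In the indirect arm, the ewe received triclosan at 100 µg/kg per day (3 arrays), or vehicle (2 arrays used), for 2 days, and the fetal hypothalamus was again the tissue measured. The maternal vehicle array numbered 3 was left out: at each of 15744 spots its signal was a mixture of 0.6 parts of replicate 1 and 0.4 parts of replicate 2. The comparisons ask whether either route of triclosan exposure changed receptor transcripts, and whether the routes differed. The sources used here do not say whether each array stands for its own pregnancy, so p-values measure the spread between these arrays.

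LEPR is the receptor of leptin, the fat-derived hormone that restrains feeding, and it signals through a kinase bound to it and STAT transcription factors. The other 6 are G-protein-coupled receptors. NPY1R and NPY2R both bind neuropeptide Y, a strong stimulus of feeding: NPY1R is mainly a postsynaptic receptor, and NPY2R is largely found on the neuropeptide Y neurons themselves, where it restrains release. HCRTR1 and HCRTR2 bind the orexins, peptides of the lateral hypothalamus that promote wakefulness and feeding, with HCRTR2 best known for wakefulness. GLP1R binds glucagon-like peptide 1, which reduces food intake, and BRS3 is an orphan relative of the bombesin receptors whose loss causes obesity in mice.

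The probes that the results turn on are shown first, as the scanner files give them, 5′ to 3′, with positions counted on the target transcript named in those files, since no genome build is named there. NPY1R was read by 2 probes offset by 1 base, which share 59 of 60 bases (probe 017141 at positions 264 to 323, probe 017142 at 263 to 322), and NPY2R by 2 probes offset by 2 bases, which share 58 (probe 017121 at 355 to 414, probe 017122 at 353 to 412). They are shown because near-identical probes should report the same RNA, and capitals mark the bases not shared.
NPY1R 017141: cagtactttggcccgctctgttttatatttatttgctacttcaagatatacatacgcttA
NPY1R 017142: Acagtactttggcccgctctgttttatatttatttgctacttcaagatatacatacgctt
NPY2R 017121: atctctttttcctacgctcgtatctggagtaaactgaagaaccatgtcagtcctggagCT
NPY2R 017122: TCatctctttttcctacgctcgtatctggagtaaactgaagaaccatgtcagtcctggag

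LEPR had 4 probes, in 2 places of the same transcript. Probes 056811 (positions 445 to 504) and 056812 (415 to 474) overlap by the 30 bases in capitals. Probe 039556 (2697 to 2756), printed on 5 spots of each array, ends in the stop codon of the only frame that is open over it and over the adjoining probe 039557 (2637 to 2696), and capitals mark that codon. The places matter because splice forms of the leptin receptor share the extracellular part and differ at the 3′ end. Which splice forms each probe read was not tested.
LEPR 056811: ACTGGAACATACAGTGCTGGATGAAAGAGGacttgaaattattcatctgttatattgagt
LEPR 056812: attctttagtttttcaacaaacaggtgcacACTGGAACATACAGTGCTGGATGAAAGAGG
LEPR 039556: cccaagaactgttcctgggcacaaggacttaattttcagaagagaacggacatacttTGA

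HCRTR2 is shown because its direct difference came closest to the threshold under the main processing. BRS3 is shown because its direct difference came near the threshold with the slide as a block. HCRTR2 had 1 probe, 026626 at positions 303 to 362 of its target, and the BRS3 probe that stands for its gene, 030117, lies at 1280 to 1339.
HCRTR2 026626: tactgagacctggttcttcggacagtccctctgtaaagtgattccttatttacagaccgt
BRS3 030117: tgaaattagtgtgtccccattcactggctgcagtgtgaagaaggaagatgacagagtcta

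Signals are given as the log2 of the processed signal minus the log2 of that array's 75th percentile, so 0 is the 75th percentile of the array and negative values are dimmer. This scaled log2 signal compares arrays for 1 probe and does not rank probes against each other. Per array, 83.3% to 90.1% of spots were marked well above background and 0 were saturated. The median processed signal lay between 236.1 and 307.4 in fetal triclosan arrays and between 315.4 and 380.0 in fetal vehicle arrays, without overlap, and between 284.3 and 375.8 in maternal triclosan arrays and 350.9 and 353.9 in maternal vehicle arrays. The RNA came from whole hypothalamus, so fewer cells of a type and less RNA per cell cannot be told apart. Of 13 hypothalamic peptide and identity genes tested, 12 were well above background on all 13 arrays, among them OXT, POMC and GHRH. No gene of the marker lists for neurons or oligodendrocytes was named on the array. Slides 1 and 2 each held the array of that replicate number from all 4 groups. Slide 3 held replicate 3 of fetal triclosan, maternal triclosan and fetal vehicle and also fetal vehicle replicate 4, but no maternal vehicle array, and slide 5 held only fetal triclosan replicate 4.

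Receptor transcripts were measured in every group. NPY1R, NPY2R, HCRTR1, HCRTR2, BRS3 and the brighter GLP1R probe were well above background on all 13 arrays. LEPR was near the limit of detection: probe 056811 was well above background on 11 arrays, 039556 on 6, 056812 on 5 and 039557 on 0 of 13. The second GLP1R probe, 049657, passed on 11. Thus 13 of the 14 probes could be tested, for all 7 genes, and for each gene the tested probe with the highest mean stands for it.

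After direct exposure of the fetus, none of the 7 receptors was called higher or lower. By limma's test, 0 of 13 receptor probes passed an adjusted p of 0.05, against a background of 18.2% of all 13737 probes tested (937 higher, 6.82%, and 1561 lower, 11.4%). At an unadjusted p under 0.05 the count was also 0 of 13, against 33.1% of all probes. No receptor probe had triclosan and vehicle arrays that did not overlap, against 21.9% of all probes. The receptor probes had a median log2 difference, triclosan minus vehicle, of −0.07, and all probes had −0.09. Adjusted p-values of the receptor probes lay between 0.166 and 0.937. The 95% intervals were between 0.78 and 2.81 log2 units wide, and for 10 of the 13 probes they reached less than 1 log2 unit to either side of the estimate.

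After indirect exposure through the ewe no receptor probe was called, and most had higher values in maternal triclosan under the main processing. Of 13 probes, 9 were higher and 4 lower in maternal triclosan, with a median log2 difference of 0.49, while the median of all probes was 0.01. With normexp background correction on the unprocessed signals the same 13 probes gave 5 higher and 8 lower. No probe on the whole array passed (0%), and 9.64% of all probes had an unadjusted p under 0.05, against 3 of the 13 receptor probes: LEPR 056812 and 039556, both with higher values in triclosan, and NPY2R 017122, with lower. The groups did not overlap for 10 of 13 receptor probes, and for 39.1% of all probes, in a comparison of only 3 arrays with 2. These 10 are not independent results, since all come from the same 5 arrays and several read the same gene. The smallest adjusted p was 0.483 among the receptors and 0.227 over the whole array.

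**Figure D1:**
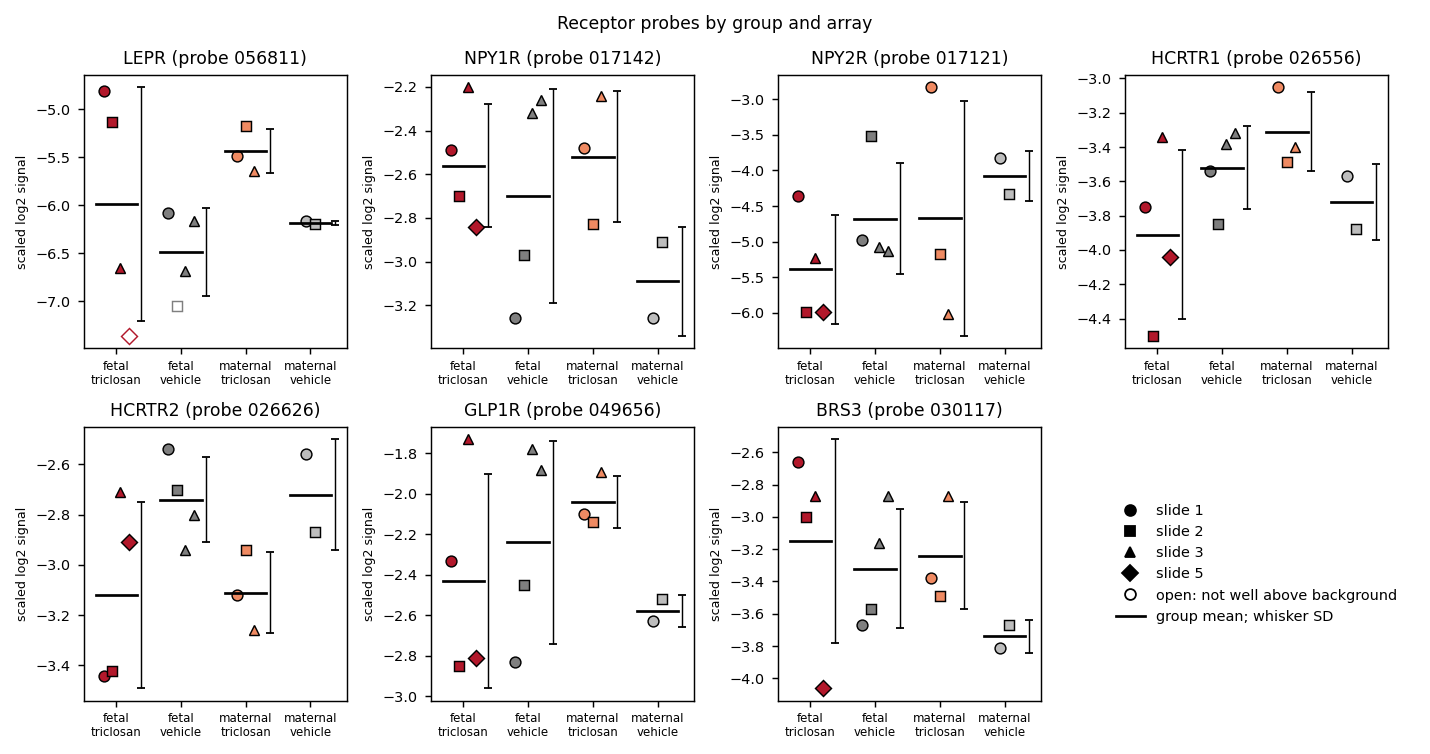
Scaled log2 signal (log2 of the processed signal minus the array's 75th percentile, each panel with its own axis) of the probe that stands for each receptor, by group, with 1 point per array, its shape giving the slide, open points not well above background, and a bar and whisker for the group mean and SD. The 4 fetal triclosan arrays overlap the 4 fetal vehicle arrays in all 7 panels, while in the indirect arm only NPY2R overlaps.

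**Figure D2:**
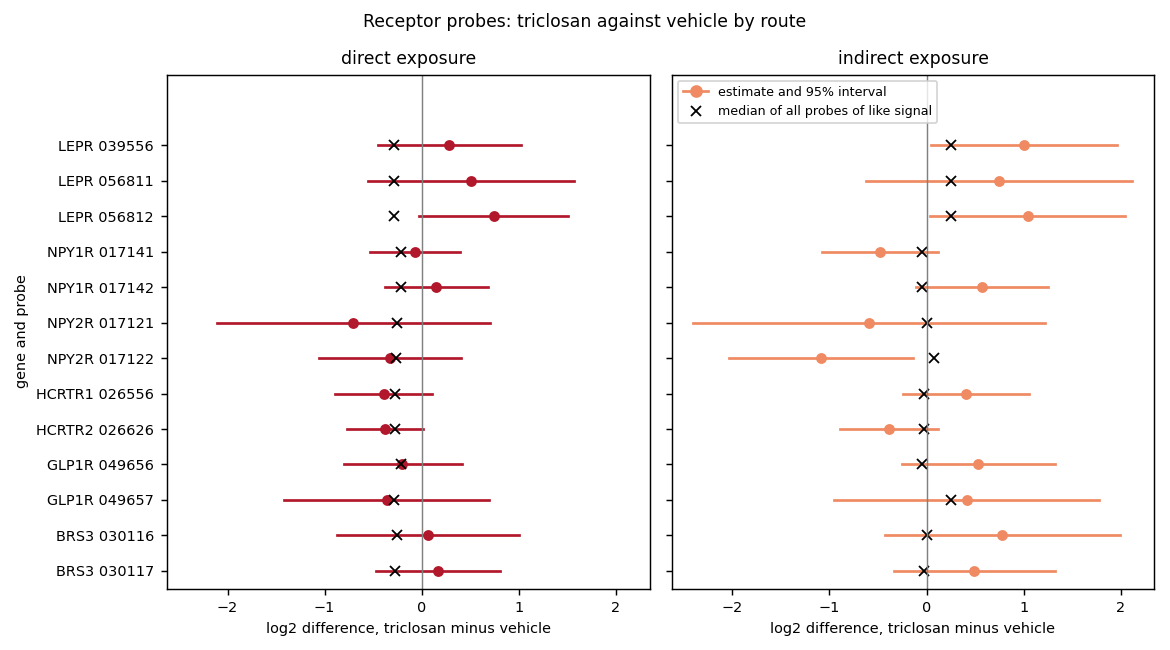
Log2 difference, triclosan minus vehicle, of the 13 tested receptor probes after direct and indirect exposure, with 95% intervals from limma's fit, and a cross at the median difference of all probes of the same signal decile. After direct exposure all intervals contain 0, and after indirect exposure those of LEPR 039556 and 056812 and NPY2R 017122 do not.

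Leptin receptor signal was higher in some triclosan arrays of either route, at a dim signal. LEPR 056811 had scaled log2 signals of −4.81, −5.13, −6.65 and −7.36 in fetal triclosan arrays 1 to 4, against −6.08, −7.05, −6.69 and −6.16 in fetal vehicle arrays 1 to 4. The first 2 triclosan arrays lay above all vehicle arrays, array 4 lay below all of them and was not well above background, and the groups overlapped. The direct difference was 0.51 (SE 0.48, 95% interval −0.55 to 1.57, adjusted p = 0.501). After indirect exposure the same probe had −5.49, −5.18 and −5.64 in maternal triclosan and −6.17 and −6.20 in maternal vehicle arrays, and the groups did not overlap. That difference was 0.75 (SE 0.62, interval −0.62 to 2.12, adjusted p = 0.696).

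The overlapping LEPR probe 056812 followed 056811 over the 13 arrays (Pearson r = 0.85, a description over arrays that share slides and groups). It had −5.80, −5.94, −6.79 and −7.02 in fetal triclosan arrays and −7.04, −7.71, −7.55 and −6.20 in fetal vehicle arrays. Fetal vehicle replicate 4 was the only vehicle array above any fetal triclosan array, and the direct difference was 0.74 (SE 0.35, interval −0.03 to 1.51, adjusted p = 0.168). Without fetal vehicle replicate 4 it was 1.05 with an adjusted p of 0.0469, the single setting of 26 in which this probe passed. After indirect exposure it had −6.21, −5.63 and −5.90 in maternal triclosan and −6.89 and −7.02 in maternal vehicle arrays. It was not well above background on either maternal vehicle array, nor on maternal triclosan replicate 1. The bound that allows for dim vehicle values was 2.06-fold higher in maternal triclosan (limma's adjusted p = 0.514). Both vehicle values already exceeded the lowest signal marked well above background on their arrays (−7.18 and −7.19), so this bound equals the fitted fold (log2 difference 1.04, interval 0.04 to 2.04). The 2.06 is thus a point estimate and not a minimum. The direction rests on the processing, since the difference was −0.37 with normexp correction and 0.09 in the authors' deposited values.

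The probe at the 3′ stop codon, 039556, gave less. It averaged −6.97 ± 0.49 in fetal triclosan and −7.25 ± 0.33 in fetal vehicle arrays (SD, n = 4 each), a difference of 0.28 (SE 0.34, adjusted p = 0.596). With maternal infusion it averaged −6.69 ± 0.70 in maternal triclosan arrays (SD, n = 3) and −7.69 ± 0.64 in maternal vehicle arrays (SD, n = 2). The indirect difference was 1.00 (SE 0.43, interval 0.05 to 1.96, limma's adjusted p = 0.514), and the groups overlapped. The probe was not well above background on either vehicle array, and the bound that allows for those dim values was 1.41-fold. The 1.41 is not a minimum, since limma's 95% interval for the fitted fold ran from 1.04 to 3.88. With normexp correction the indirect difference was −0.36. Its 5 spots were all well above background on maternal triclosan replicates 2 and 3 and on no spot of replicate 1. The adjoining probe 039557 averaged −8.28 in fetal triclosan, −8.73 in fetal vehicle, −8.22 in maternal triclosan and −8.79 in maternal vehicle arrays, not well above background on any of them, and no fold is given.

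Dim probes moved as a class in the direct comparison. The median log2 difference of all probes was −0.29 in the dimmest decile of probes by mean signal and 0.24 in the brightest. The 3 tested LEPR probes lay in that dimmest decile and had positive differences. After indirect exposure the dimmest decile had a median of 0.25, against 0.75, 1.00 and 1.04 for the LEPR probes 056811, 039556 and 056812. With normexp background correction on the unprocessed signals the indirect value of 056811 turned to −0.24, and its direct value was 0.40. Within slides, the direct difference of 056811 was 1.27 on slide 1 and 1.92 on slide 2, but −0.22 on slide 3, and with the slide as a block it was 0.88 (adjusted p = 0.138), a fit in which fetal triclosan replicate 4 has no partner.

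**Figure D3:**
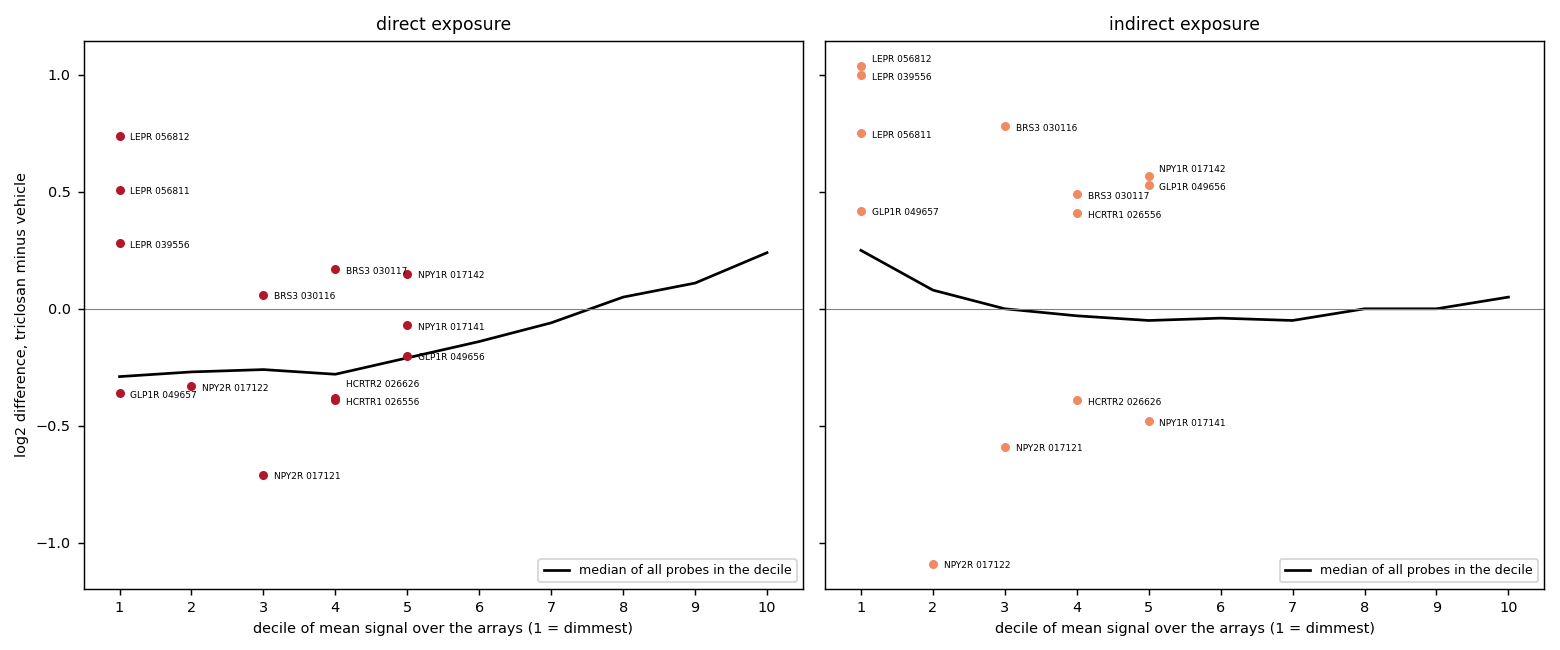
Log2 difference, triclosan minus vehicle, of each receptor probe (points) against the decile of mean signal it falls in, with 1 the dimmest, for direct and indirect exposure, and the median of all probes of each decile (line). The line runs between −0.29 and 0.24 for direct exposure, and the LEPR probes stand above it in both panels.

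The neuropeptide Y receptors gave values that depended on the probe. NPY1R 017142 had −2.49, −2.70, −2.20 and −2.84 in fetal triclosan arrays 1 to 4, against −3.26, −2.97, −2.32 and −2.26 in fetal vehicle arrays, and the groups overlapped. Its direct difference was 0.15 (SE 0.24, interval −0.38 to 0.68, adjusted p = 0.709). NPY1R 017141, which differs from it by a shift of 1 base, had −3.03, −2.56, −3.09 and −2.83 in fetal triclosan arrays and −2.23, −2.81, −3.19 and −2.99 in fetal vehicle arrays, a difference of −0.07 (SE 0.21, interval −0.53 to 0.39, adjusted p = 0.846). Neither probe separated the fetal groups.

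After indirect exposure the 2 NPY1R probes differed in sign. Probe 017142 had −2.48, −2.83 and −2.24 in maternal triclosan and −3.26 and −2.91 in maternal vehicle arrays, without overlap, a difference of 0.57 (SE 0.31, interval −0.11 to 1.25, adjusted p = 0.57). Probe 017141 had −2.89, −2.78 and −2.98 in maternal triclosan and −2.11 and −2.69 in maternal vehicle arrays, also without overlap, a difference of −0.48 (SE 0.27, interval −1.08 to 0.12, adjusted p = 0.58). Within slides 1 and 2 the indirect difference was 0.79 and 0.08 for 017142, and −0.78 and −0.08 for 017141. No direction can therefore be given for NPY1R.

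The near-identical NPY1R probes ran against each other from array to array. Over the 13 arrays the 2 NPY1R probes had a Pearson r of −0.88. Probe 017141 minus 017142 was −0.54 and −0.41 on the fetal and maternal triclosan arrays of slide 1, against 1.03 and 1.15 on the fetal and maternal vehicle arrays of that slide. It was 0.06 to 0.22 on the 4 arrays of slide 2, and −0.89 to −0.73 on the 4 arrays of slide 3. Thus the treatment groups split on slide 1 and lay together on slides 2 and 3. Among 185 pairs of probes on the array that are offset by 1 to 3 bases and well above background on all 13 arrays, the SD of the difference between the 2 probes had a median of 0.12 and a 90th percentile of 0.43. The NPY1R pair had an SD of 0.67, and 95.7% of pairs had a smaller one.

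NPY2R varied widely, and its standing probe had single arrays far from the rest. Probe 017121 had −4.36, −5.99, −5.23 and −5.98 in fetal triclosan arrays and −4.98, −3.52, −5.08 and −5.13 in fetal vehicle arrays, where replicate 2 stood apart. The direct difference was −0.71 (SE 0.64, interval −2.11 to 0.70, adjusted p = 0.476). With maternal infusion it had −2.83, −5.17 and −6.02 in maternal triclosan and −3.83 and −4.33 in maternal vehicle arrays, so that maternal triclosan held both the highest and the lowest value of the arm, with a difference of −0.59 (SE 0.83, adjusted p = 0.82).

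The second NPY2R probe, 017122, lacked those high values. It had −4.56, −5.75, −5.75 and −6.09 in fetal triclosan arrays and −5.00, −5.52, −5.32 and −5.01 in fetal vehicle arrays, a difference of −0.33 (SE 0.33, adjusted p = 0.526). It had −4.76, −5.23 and −5.95 in maternal triclosan and −4.00 and −4.46 in maternal vehicle arrays, without overlap, a difference of −1.09 (SE 0.43, interval −2.03 to −0.14, adjusted p = 0.483). Maternal vehicle was also above fetal vehicle for this probe, by 0.98 (SE 0.41, adjusted p = 0.999), without overlap. The NPY2R pair had an SD of 0.73, with 96.8% of the 185 pairs smaller: 017121 exceeded 017122 by 1.99 on fetal vehicle replicate 2 and by 1.93 on maternal triclosan replicate 1, and the difference was between −0.23 and 0.53 on the other 11 arrays.

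**Figure D4:**
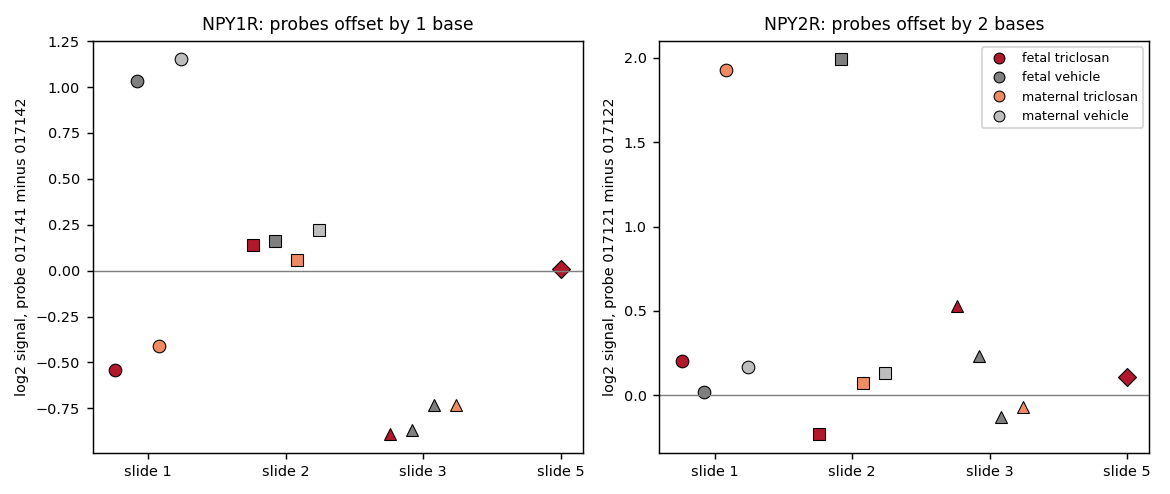
Difference in log2 signal between the 2 near-identical probes of NPY1R (left) and of NPY2R (right), 1 point per array, coloured by group and placed by slide. The NPY1R difference spans −0.89 to 1.15 and the NPY2R difference −0.23 to 1.99, with 2 arrays near the top of the NPY2R panel.

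HCRTR2, the orexin receptor tied to wakefulness, had the same sign in both arms, and neither difference was called. Its probe had −3.44, −3.42, −2.71 and −2.91 in fetal triclosan arrays, against −2.54, −2.70, −2.94 and −2.80 in fetal vehicle arrays. Triclosan arrays 1 and 2 lay below every vehicle array and arrays 3 and 4 lay among them. The direct difference was −0.38 (SE 0.18, interval −0.77 to 0.01, adjusted p = 0.166), where all probes of its signal decile had a median of −0.28. In the indirect arm the values were −3.12, −2.94 and −3.26 in maternal triclosan and −2.56 and −2.87 in maternal vehicle arrays, without overlap, a difference of −0.39 (SE 0.23, interval −0.89 to 0.12, adjusted p = 0.594). Within slides the direct difference was −0.90, −0.72 and 0.16 on slides 1, 2 and 3, and the indirect one was −0.56 and −0.07 on slides 1 and 2.

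HCRTR1, the second orexin receptor, had opposite signs in the 2 arms. It had −3.75, −4.50, −3.34 and −4.04 in fetal triclosan arrays and −3.54, −3.85, −3.38 and −3.32 in fetal vehicle arrays, an overlap of both groups, with a difference of −0.39 (SE 0.23, interval −0.89 to 0.11, adjusted p = 0.263). In maternal triclosan arrays it had −3.05, −3.49 and −3.40, against −3.57 and −3.88 in maternal vehicle arrays, without overlap, a difference of 0.41 (SE 0.29, interval −0.24 to 1.05, adjusted p = 0.649). The direct minus the indirect difference was −0.80 (SE 0.37, interval −1.61 to 0.02, adjusted p = 0.346), and no receptor probe passed that test of the arms (0 of 13, with 0% of all probes called, and 0 of 13 at an unadjusted p under 0.05, with 14.7% of all probes). Under quantile normalization the direct values of HCRTR1 and HCRTR2 were both −0.11, and under scaling by the median −0.17 and −0.16. These 4 values are smaller than their standard errors, which were 0.17 to 0.20. Over all 27 settings the direct value ran from −0.58 to −0.10 for HCRTR1 and from −0.51 to −0.10 for HCRTR2. The lowest adjusted p of limma's test was 0.0686 for HCRTR1 and 0.0512 for HCRTR2, so neither was called in any setting.

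GLP1R was represented by a bright and a dim probe that did not move together (Pearson r = −0.05 over the 13 arrays). The bright probe, 049656, had −2.33, −2.85, −1.73 and −2.81 in fetal triclosan arrays and −2.83, −2.45, −1.78 and −1.88 in fetal vehicle arrays, and the direct difference was −0.20 (SE 0.28, interval −0.80 to 0.41, adjusted p = 0.664). That sign was positive under quantile normalization (0.04), median scaling (0.02), the authors' values (0.09) and the slide block (0.04). In the indirect arm it had −2.10, −2.14 and −1.89 in maternal triclosan and −2.63 and −2.52 in maternal vehicle arrays, without overlap and with a small spread in each group, a difference of 0.53 (SE 0.36, interval −0.25 to 1.32, adjusted p = 0.627). The 4 arrays of slide 3, none of them maternal vehicle, lay between −1.89 and −1.73, against means of −2.47 and −2.49 on slides 1 and 2. Within slides 1 and 2 the indirect difference was 0.53 and 0.38. The dim probe, 049657, averaged −6.54 ± 0.33 in fetal triclosan and −6.18 ± 0.32 in fetal vehicle arrays (SD, n = 4 each), and it had −6.84, −3.97 and −5.35 in maternal triclosan against −5.38 and −6.22 in maternal vehicle arrays, where the groups overlapped.

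BRS3 had 1 fetal triclosan array far below the others. Probe 030117 had −2.66, −3.00, −2.87 and −4.06 in fetal triclosan arrays, against −3.67, −3.57, −3.16 and −2.87 in fetal vehicle arrays. Fetal triclosan replicate 4 was the lowest of all 13 arrays and replicate 1 the highest. The direct difference was 0.17 (SE 0.29, interval −0.47 to 0.81, adjusted p = 0.722), and without fetal triclosan replicate 4 it was 0.48 (adjusted p = 0.144). On slides 1, 2 and 3 it was 1.02, 0.57 and 0.15, and with the slide as a block, where replicate 4 carries no weight, 0.54 (SE 0.17, adjusted p = 0.0519).

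The second BRS3 probe, 030116, gave a like picture (Pearson r = 0.84 with 030117). It had −3.83, −3.61, −3.60 and −5.51 in fetal triclosan arrays and −4.74, −4.58, −3.87 and −3.62 in fetal vehicle arrays, a direct difference of 0.06 (SE 0.43, adjusted p = 0.937) and of 0.60 with the slide as a block (adjusted p = 0.142). After indirect exposure probe 030117 had −3.38, −3.49 and −2.87 in maternal triclosan and −3.81 and −3.67 in maternal vehicle arrays, without overlap, a difference of 0.49 (SE 0.38, interval −0.34 to 1.32, adjusted p = 0.668), and probe 030116 gave 0.78 (SE 0.55, adjusted p = 0.642). Within slides 1 and 2 the indirect difference was 0.43 and 0.18 for 030117, and 1.32 and 0.08 for 030116. Slide 3, without a maternal vehicle array, had a mean of −2.94 for 030117, against −3.38 and −3.43 on slides 1 and 2.

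For each receptor the 4 group means of the standing probe could be put in order, but the ranges of every pair of neighbours in that order overlapped. Maternal triclosan had the highest mean for LEPR (−5.44 ± 0.23), NPY1R (−2.52 ± 0.30), HCRTR1 (−3.31 ± 0.23) and GLP1R (−2.04 ± 0.13; SD, n = 3 each). Fetal triclosan had the highest mean for BRS3, at −3.15 ± 0.63 (SD, n = 4), and maternal vehicle for NPY2R, at −4.08 ± 0.35, and HCRTR2, at −2.72 ± 0.22 (SD, n = 2 each). The order depended on the probe for NPY1R and BRS3: 017141 was highest in maternal vehicle (−2.40) and 030116 in maternal triclosan (−3.73). The other tested probes were highest in the same group as the standing probe. Between the vehicles of the 2 routes, 0 of 13 receptor probes and 0% of all probes were called, and 1 of 13 receptor probes had an unadjusted p under 0.05 (NPY2R 017122), against 3.28% of all probes. The same probe was the only 1 of 13 whose vehicle groups did not overlap, against 17.2% of all probes.

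The ligands of these receptors, listed together with related peptides, did not pass either. Of 8 listed genes of ligands and related peptides, 5 were tested and 0 were called by limma in any contrast. An unadjusted p under 0.05 was found for 0 of 5 after direct and 2 of 5 after indirect exposure (NPY and GCG). NPY itself had 1.68, 1.65, 1.22 and −0.98 in fetal triclosan arrays and −0.10, −0.25, 0.07 and 1.30 in fetal vehicle arrays, a difference of 0.64 (SE 0.54, adjusted p = 0.446). With maternal infusion NPY had 1.63, 1.59 and 2.01 in maternal triclosan and 0.01 and 0.07 in maternal vehicle arrays, a difference of 1.70 (SE 0.69, adjusted p = 0.493). Its 2 probes, offset by 3 bases, had a pair SD of 0.10, so the ligand was read alike by both where its receptors were not. The leptin gene LEP had direct and indirect differences of −0.29 and −0.13. GCG, which encodes glucagon-like peptide 1, had −0.37 and 0.89, with the opposite sign in its second probe (0.30 and −0.94), PPY had −0.11 and 0.09, and GRP, a bombesin-like peptide, −0.24 and 0.10.

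Among the signalling genes behind the receptors, STAT5A fell after direct exposure. STAT5A is a transcription factor activated by cytokine-type receptors, among them the leptin, prolactin and growth hormone receptors. It had −4.52, −4.55, −4.10 and −4.50 in fetal triclosan arrays, against −3.41, −3.61, −3.53 and −3.23 in fetal vehicle arrays, and the groups did not overlap. The difference was −0.97 (SE 0.16, interval −1.32 to −0.63, adjusted p = 0.00429), and a second STAT5A probe gave −1.06 (adjusted p = 0.0103). The first probe was called in all 27 settings tried, with values from −1.08 to −0.56, and the second in 26, the exception being normexp background correction (adjusted p = 0.0657). In the indirect arm STAT5A had −3.86, −3.79 and −3.27 in maternal triclosan and −3.21 and −3.37 in maternal vehicle arrays, a difference of −0.35 (SE 0.21, adjusted p = 0.592), and the direct minus the indirect difference was −0.63 (adjusted p = 0.316).

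STAT5A was 1 of 3 tested among 41 listed signalling genes. The other two, AKT1, a kinase of the insulin pathway (−0.30, adjusted p = 0.304), and PRKAA2, a subunit of the energy sensor AMP-activated kinase (−0.32, adjusted p = 0.106), were not called. Over all 901 named genes tested, 54 were higher and 82 lower after direct exposure (15.1%), with a median of −0.10. Of 4 endothelial markers tested, 2 were also called lower, KDR at −1.57 and FLT1 at −1.19. PECAM1 (−0.26) and TIE1 (0.06) were not called, and FLT1 was well above background on only 8 of 13 arrays. Of 3 erythroid markers, 1 was called higher, AHSP at 0.94, while HBB (1.32) and CA1 (1.14) were higher but not called. All 3 had an unadjusted p under 0.05 by limma's test, where 33.1% of all probes did. After indirect exposure HBB had 1.80, AHSP 1.45 and CA1 0.34, and none was called. The part of these markers in the STAT5A value was not tested.

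Other receptors of appetite and energy signals were not called either. Of 53 listed, 8 were named on the array and 7 tested, and 0 were called by limma in any contrast. At an unadjusted p under 0.05 there were 4 of 7 after direct and 1 of 7 after indirect exposure, against 33.1% and 9.64% of all probes. After direct exposure their median log2 difference was −0.42, against −0.10 for all named genes. That comparison was not matched for signal. In the 5 dimmer deciles of all probes the median lay between −0.29 and −0.21. The 4 with the smallest unadjusted p were CRHR1, a receptor of corticotropin-releasing hormone (−0.93, adjusted p = 0.0673), OXTR, the oxytocin receptor (0.57, adjusted p = 0.0872), OPRK1, the kappa opioid receptor (−0.36, adjusted p = 0.143), and IGF1R, the receptor of insulin-like growth factor (−0.45, adjusted p = 0.147). OXTR had the only positive direct value of these 7, and it was 0.77 after indirect exposure (adjusted p = 0.463). A second OXTR probe gave −0.01 after direct (adjusted p = 0.983) and 1.13 after indirect exposure (adjusted p = 0.436), so the direct values of the 2 probes disagreed.

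The peptide neuron genes had positive direct differences throughout, from 0.37 to 2.32 in 13 tested genes, with a median of 0.90. By limma 0 were called, and 6 of 13 had an unadjusted p under 0.05, where 33.1% of all probes did. After indirect exposure 0 were called and 5 of 13 had an unadjusted p under 0.05, where 9.64% of all probes did. The differences ran from −5.25 to 3.42, and only that of ASIP, the agouti signalling protein, was negative. ASIP had −3.22, −3.28 and 5.07 in maternal triclosan and 4.55 and 5.01 in maternal vehicle arrays, so its value rests on maternal triclosan replicates 1 and 2. The smallest unadjusted p after direct exposure belonged to TAC1, GHRH, GAL and GNRH1. TAC1, which encodes substance P, had 0.37 (adjusted p = 0.0523), and GHRH, growth hormone-releasing hormone, had 2.32 (adjusted p = 0.101). GAL, galanin, had 1.06 (adjusted p = 0.115), and GNRH1, the gonadotropin-releasing hormone, had 1.61 (adjusted p = 0.126). GNRH1 was well above background on 11 of 13 arrays. It read −8.48 and −7.91 on fetal vehicle replicates 2 and 3, against −6.03 and −5.44 on replicates 1 and 4. The receptors' median of −0.20 over the 7 standing probes is a description beside the differences of the peptide genes.

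As a description of pattern, each receptor's standing probe was correlated over the 13 arrays with 1 probe of each of 815 named genes that were well above background on at least 10 arrays. The arrays share groups and slides, and no test was made. LEPR was most like MYC (Pearson r = 0.87), VDUP1 (0.86) and TAC3 (0.85), and BRS3 like PHF14 (0.86), AGRP (0.85) and GHRH (0.80). AGRP and GHRH are peptides of the arcuate nucleus. HCRTR2 was most like RAP2A (0.87), NAMPT (0.86) and DGAT1 (0.85), and HCRTR1 like JUNB (0.93), PUS1 (0.92) and PAC1R (0.91). NPY1R 017142 was most like HOXC6 (0.95), SFTPB (0.95) and SFN (0.93), each more alike in pattern than its own near-identical probe (−0.88). GLP1R 049656 was most like GUCA2B (0.98), PDGFB (0.95) and ADRB1 (0.95), and NPY2R 017121 had no gene above 0.73 (ODC1), followed by CHI3L1 (0.70) and FBXO32 (0.66). Among the 7 receptors themselves the highest correlations were those of NPY1R with GLP1R (0.82) and with BRS3 (0.80), and the lowest was LEPR with HCRTR2 (−0.65).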

How the data were processed

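Hypothalamic RNA was hybridised, 1 sample per array, on Agilent ovine arrays. The authors' scanner files, made with Agilent Feature Extraction 10.1.1.1 per the file headers, give the intensity of every spot, including a processed signal with background subtracted and no scaling between arrays. The authors' deposited value table is on a log2 scale by comparison with the scanner signals, with a scaling that the sources do not state, and it served as an alternative. The submitters' processing notes also name limma. After control and outlier spots were removed, the log2 processed signal was taken minus the array's 75th percentile, spots of a probe were averaged, and a probe was tested if well above background on at least 3 of 13 arrays. This left 13737 probes with 249 missing values. Group means were fitted in R 4.3.3 with limma 3.58.1, which had 9 residual degrees of freedom and a prior of 2.36, and two-sided p-values of its moderated test were adjusted over all probes (Benjamini-Hochberg, threshold 0.05). The script was tested on simulated data. The number of arrays limits the precision. Where none of the dimmer group's arrays had a probe well above background, a bound on the fold was also taken. For it, each dim value was raised to the lowest signal well above background on its array. That signal can come from any probe, and the bound leaves out the spread between arrays, so it is not a strict minimum.

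Names of probes were those in the scanner files or were matched to RefSeq by transcript, symbol or gene number: LEPR and BRS3 by transcript, NPY1R, NPY2R and GLP1R by symbol, HCRTR1 and HCRTR2 by gene number. Of 15008 probes, 1556 carried a symbol. The sequences are those of the scanner files. All probes of the 7 receptors are named, with all tested ligands and related peptides. Of other receptors, signalling and peptide genes, those called in any contrast are named, and otherwise up to 4 per list with the smallest direct p, and 3 genes of the most alike pattern per receptor. The receptors and lists were chosen with earlier results of these data known. Plots were drawn with matplotlib 3.10.9, and tables made in Python 3.11.15 with numpy 2.4.6 and pandas 2.3.3. Alternatives were other background correction, scaling, filters, blocks, weights and array sets. Replicate numbers were not taken to pair arrays.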

Additional observations from a re-analysis of the deposited data

Results flagged for a closer look

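In 26 groups of 4 arrays tested (the 13 receptor probes in each fetal group), 3 arrays stood far from the others of their group, where chance flags about 1 in 20 groups. NPY2R probe 017121 read −3.52 on fetal vehicle replicate 2, against −5.13 to −4.98 on the other 3 arrays, while its near-identical probe 017122 read −5.52 on that array. BRS3 probe 030116 read −5.51 on fetal triclosan replicate 4, the array alone on its slide, against −3.83 to −3.60 on the others, and the second BRS3 probe, 030117, was also lowest there (−4.06). GLP1R probe 049657, a dim probe, read −5.71 on fetal vehicle replicate 1, against −6.36 to −6.28 on the others.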

How the results depend on the processing

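The count of receptors called was 0 of 7 in each contrast under all 13 other settings, and under 13 fits without 1 array except that direct exposure gave 0 to 1, the 1 being LEPR without fetal vehicle replicate 4. Of the whole array, direct exposure called 2498 probes, but 1589 with quantile normalization, 1275 from a fit of the 2 fetal groups alone, and 1217 (without fetal vehicle replicate 3) to 2951 without 1 array. Scaling by the median called 3121, of which 2175 were higher, against 937 of 2498, and moved the median of all probes to 0.13, against −0.09, so direct signs of small size rest on the scaling. Indirect exposure called 12 probes with all 14 deposited arrays, 412 with array weights and 0 to 2 without 1 array. Same-numbered arrays deviated together in 8 of 16 pairs (r over 0.1, range −0.17 to 0.46). The 46 pairs of unlike number ranged from −0.46 to 0.30, and 6 of 13 arrays correlated best with their own number. Numbers 1 and 2 are also slides 1 and 2, so number and slide cannot be told apart there. Centring makes the 2 maternal vehicle arrays mirror each other, so their pairs cannot decide this. The numbers were not taken as pairs in the main fit, and the replicate block called 0 receptors and 2825 probes for direct exposure. These uncalled receptor differences changed sign, and the cause was not tested. With normexp correction: LEPR indirect −0.24 and between arms 0.64, NPY2R between arms 0.34, BRS3 between arms 0.07, HCRTR1 between vehicles 0.10. With quantile normalization: LEPR 0.12 and NPY2R 0.26 between arms, GLP1R direct 0.04. With median scaling: NPY2R between arms 0.06, GLP1R direct 0.02, HCRTR2 between vehicles 0.00 (a value just under 0). With the authors' values: LEPR 0.18 and NPY2R 0.14 between arms, GLP1R direct 0.09. With array weights: LEPR 0.07 and HCRTR2 −0.03 between arms, NPY2R indirect 0.22. With the slide block: HCRTR2 −0.04 and BRS3 0.19 between arms, GLP1R direct 0.04. With the replicate block: LEPR between vehicles −0.10. With the mean of a gene's probes, chosen after seeing the data: NPY1R 0.01 and GLP1R 0.02 between vehicles, NPY2R between arms 0.32. Without 1 array in turn, values ran from −0.63 to 0.21 for LEPR, −0.79 to 0.81 for NPY2R and −0.14 to 0.16 for HCRTR2 between arms, −1.51 to 0.08 for NPY2R indirect, −0.04 to 0.29 for NPY1R direct, and −0.13 to 0.18 for HCRTR2 between vehicles. The other directions of the probes that stand for their genes held in these settings. Of the remaining probes, direct or indirect signs changed with normexp correction (indirect LEPR 056812 −0.37 and 039556 −0.36, GLP1R 049657 −0.15 indirect and 0.13 direct, NPY2R 017122 direct 0.04), for NPY1R 017141 direct with quantile normalization (0.18), median scaling (0.15), without fetal vehicle replicate 1 (0.12) and the authors' values (0.14), and for GLP1R 049657 direct with the authors' values (0.04) and indirect with array weights (−0.16) and without maternal triclosan replicate 2 (−0.29). BRS3 030116 direct ran from −0.12 to 0.60 over all settings. Of the 13 probes, those higher after direct exposure numbered 6, but 8 with quantile normalization, median scaling or normexp correction and 9 with the authors' values. LEPR is limited by signal, since its probes were near background.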

Other observations

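Markers of cell types that hypothalamic tissue can hold were also read in the direct comparison, triclosan minus vehicle. Of 5 tested astrocyte genes, 1 was called lower, FGFR3, a growth factor receptor of astrocytes (−1.61, adjusted p = 0.0106), while GFAP had −0.63 and AQP4 0.13. Of 3 microglia and leukocyte genes, 1 was called lower, ITGAM (−0.95, adjusted p = 0.0417), while FCER1G had 0.46 and CD14 −0.03. Of 5 meningeal and connective tissue genes, 1 was called higher, PTGDS (0.55, adjusted p = 0.0302). The others had both signs: COL3A1 −0.72, COL1A2 −0.42, DCN 0.30 and TIMP1 0.38. None of 5 pituitary, 2 choroid plexus and 1 ependymal genes was called in that comparison by limma's test, and 0 of them had an unadjusted p under 0.05. After indirect exposure no marker of any list was called, and 0 to 2 genes of a list had an unadjusted p under 0.05. The pituitary transcript CGA varied widely between arrays, from −5.56 to −0.90 in fetal triclosan, −5.59 to 0.07 in fetal vehicle, −3.70 to −0.03 in maternal triclosan and −5.32 to −5.05 in maternal vehicle. Their part in the receptor values was not tested.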
